A study of Mus musculus with 60 samples.

Results

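The choroid plexus genes described here are 10 genes that epithelial cells of the choroid plexus express strongly: Ttr, Aqp1, Slc4a5, Clic6, Steap1, Folr1, Enpp2, Kl, Prlr and Otx2. They were taken by gene symbol from a count table of 21950 protein-coding genes, and each symbol matched 1 row. Their levels were followed across 60 RNA-sequencing libraries of mouse brain, in which none of the dissected regions is choroid plexus. The comparisons are between regions, between knockout and wild-type mice, and between the genes themselves from library to library.

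The choroid plexus is a vascular tissue covered by a single layer of epithelium that hangs into the brain ventricles and secretes most of the cerebrospinal fluid. Fluid secretion depends on water channels and bicarbonate and chloride transport across the epithelium, and the same cells carry thyroid hormone and folate into the fluid. The plexus of the lateral ventricle lies along the inner edge of the hippocampus and beside the striatum, so that a dissection of either region can take some of it along.

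Adgrl3 knockout mice (KO; Adgrl3 -/-, also written Lphn3 -/- in the labels) were compared with wild-type mice (WT; Adgrl3 +/+), 12 per genotype, killed between 65 and 76 days of age. The gene's product, latrophilin-3, is a neuronal adhesion receptor that couples to G proteins. Frozen brains were microdissected into striatum, hippocampus and prefrontal cortex, and each region gave 10 KO and 10 WT libraries from total RNA. The sources used here do not give sex, litter, any sequencing batch or which part of the gene was altered.

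Library totals ran from 38985577 to 51387833 counted reads. Levels are given in CPM, which divides each count by its library's total, with TMM scaling over the 60 libraries. Adgrl3 itself lay between 16.5 and 47.0 CPM in all 30 KO libraries and between 117 and 176 CPM in all 30 WT libraries, so that the genotypes did not overlap. The regions carried their own neuronal markers: the 6 striatal neuron genes summed to 3003 to 4884 CPM in striatum, against at most 330.2 CPM in the other regions. Whether the libraries of a group come from separate animals is not stated for each library, so p-values measure the spread between these libraries.

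Of the 10 genes, Kl (GRCm38 chromosome 5, 150952607 to 150993817, plus strand) and Steap1 (chromosome 5, 5736317 to 5749326, minus strand) lie on the chromosome that carries Adgrl3. Aqp1 and Slc4a5 lie on chromosome 6, Folr1 on chromosome 7, Otx2 on chromosome 14, Prlr and Enpp2 on chromosome 15 and Clic6 on chromosome 16. Each was counted over its whole span, introns included, and exons make up between 6.82% of that span in Slc4a5 and 42.4% in Otx2. The end of Prlr overlaps the same-strand gene Gm21973, which is also counted, so reads there cannot be told apart. Ttr overlaps the antisense gene Gm16090 by its first bases, Folr1 overlaps Anapc15 on the opposite strand, and Clic6 overlaps the non-coding gene 2410124H12Rik on its own strand.

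Promoter windows were read from RefSeq (GRCm38.p6) because the genes rose and fell together from library to library, as described further on. Windows of 300 bases, from 250 before to 50 after the start site, were found for 6 of the 10 genes, and the window nearest to the counted start was taken for each. Those of Otx2 (chr14:48667595-48667894, minus strand), Aqp1 (chr6:55336049-55336348, plus strand; its RefSeq start lies before that of the count table) and Kl (chr5:150952357-150952656, plus strand) are shown 5′ to 3′, with capitals marking the bases from the start site on.
Otx2: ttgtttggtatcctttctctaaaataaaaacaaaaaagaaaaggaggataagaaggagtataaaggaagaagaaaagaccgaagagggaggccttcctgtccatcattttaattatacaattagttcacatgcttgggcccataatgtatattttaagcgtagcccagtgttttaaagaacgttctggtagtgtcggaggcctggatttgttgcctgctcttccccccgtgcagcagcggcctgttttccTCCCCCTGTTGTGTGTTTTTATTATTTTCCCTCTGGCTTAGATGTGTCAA
Aqp1: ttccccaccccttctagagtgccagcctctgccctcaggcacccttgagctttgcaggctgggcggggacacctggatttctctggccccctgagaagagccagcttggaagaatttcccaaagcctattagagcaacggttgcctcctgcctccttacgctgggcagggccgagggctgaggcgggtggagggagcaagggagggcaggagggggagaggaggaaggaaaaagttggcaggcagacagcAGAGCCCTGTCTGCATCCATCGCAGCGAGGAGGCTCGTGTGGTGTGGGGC
Kl: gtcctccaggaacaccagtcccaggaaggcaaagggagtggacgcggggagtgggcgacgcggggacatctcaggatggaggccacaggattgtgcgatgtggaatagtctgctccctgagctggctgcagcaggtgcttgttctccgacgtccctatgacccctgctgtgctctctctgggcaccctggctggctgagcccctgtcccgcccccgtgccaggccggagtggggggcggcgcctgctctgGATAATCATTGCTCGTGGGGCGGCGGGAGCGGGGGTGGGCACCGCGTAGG
The Kl window has 67.3% G and C and 19 CG dinucleotides, that of Aqp1 62.7% and 8, and that of Otx2 41.7% and 6, against medians of 52.7% and 7 over 32851 windows. The motif TAATCC, the core bound by bicoid-type homeodomain proteins such as OTX2, was searched on both strands. The forkhead core GTAAACA was searched in the same way. Neither was present in the 6 windows; TAATCC occurs in 7.06% and GTAAACA in 3.65% of all windows.

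**Figure D1:**
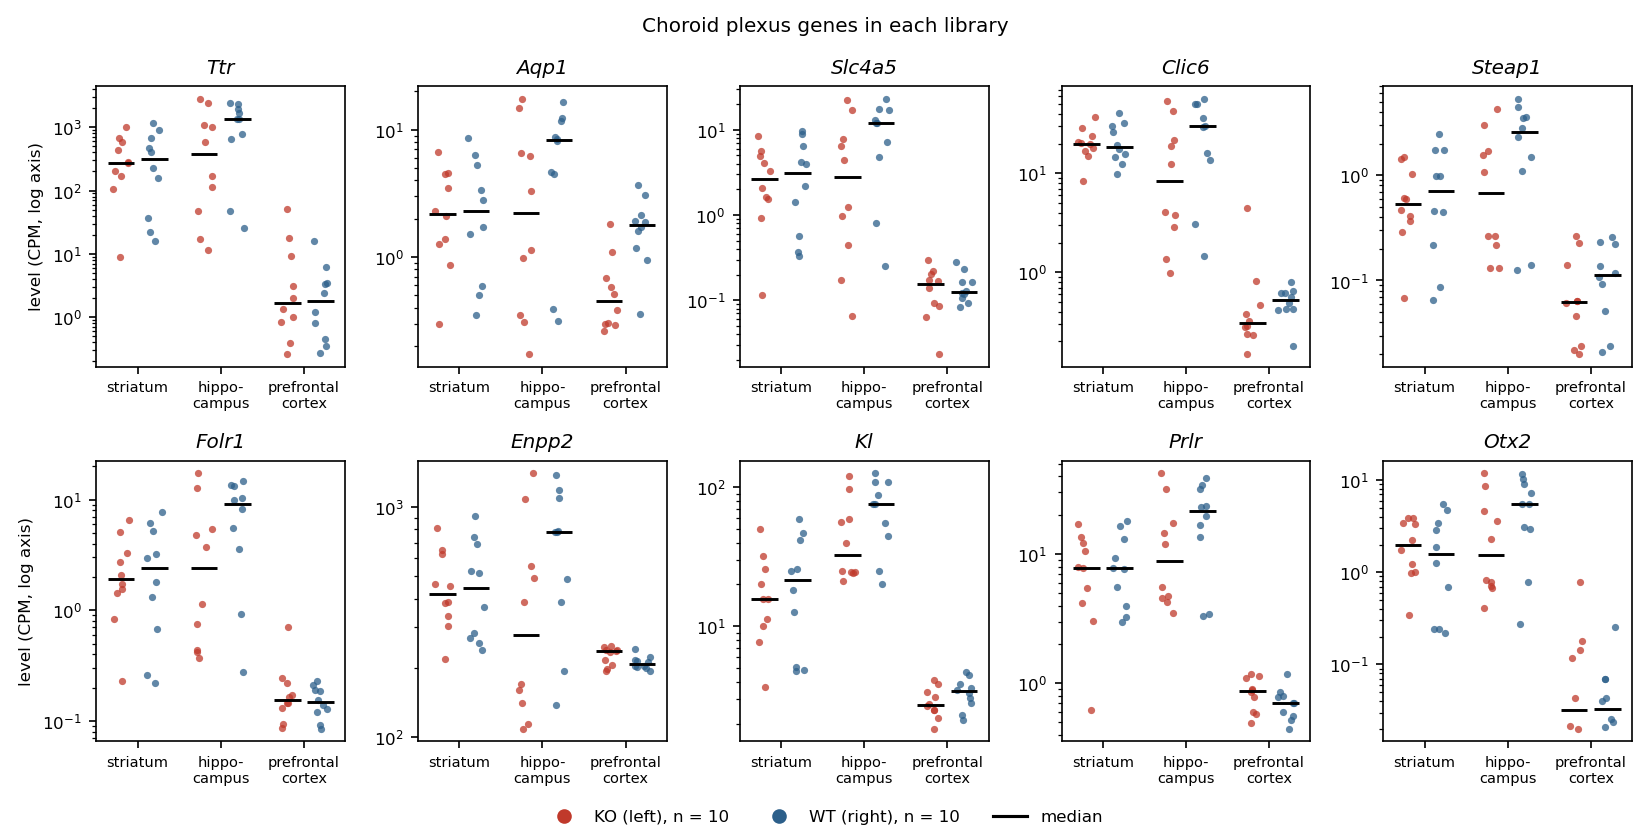
Level of each gene in each library on a log axis (CPM), by region, with KO to the left of WT and a black line at the median of 10 libraries; the 5 prefrontal cortex libraries with no Otx2 read are not drawn. Ttr spreads 132-fold in striatum and 244-fold in hippocampus, and prefrontal cortex libraries lie lowest for most genes.

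The 10 genes had higher medians in striatum and hippocampus than in prefrontal cortex, and single libraries of striatum or hippocampus differed widely. Ttr encodes transthyretin, the thyroxine carrier that the plexus secretes. Its level ran from 8.99 through a median of 277 to 1190 CPM in striatum, and from 11.6 through 896 to 2825 CPM in hippocampus. In prefrontal cortex it ran from 0.261 through 1.64 to 51.6 CPM. The highest library was thus 132 times the lowest in striatum and 244 times the lowest in hippocampus.

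Of the genes of water and ion transport, Aqp1 and Slc4a5 also had their highest median in hippocampus and their lowest in prefrontal cortex, whereas the median of Clic6 was highest in striatum. Aqp1, the water channel of the epithelium's ventricular face, ran from 0.298 through 2.20 to 8.61 CPM in striatum, from 0.174 through 5.41 to 17.5 CPM in hippocampus and from 0.263 through 1.02 to 3.67 CPM in prefrontal cortex. Slc4a5, a sodium bicarbonate cotransporter, ran from 0.115 through 2.76 to 9.77 CPM in striatum, from 0.0659 through 6.85 to 23.2 CPM in hippocampus and from 0.0234 through 0.134 to 0.295 CPM in prefrontal cortex. Aqp1 overlapped between all regions, whereas 19 of 20 striatum and 17 of 20 hippocampus libraries had more Slc4a5 than any prefrontal cortex library. Clic6, a chloride intracellular channel protein, had a narrower spread in striatum, where it ran from 8.37 through 19.7 to 40.5 CPM, against 0.977 through 17.7 to 56.7 CPM in hippocampus. In prefrontal cortex Clic6 ran from 0.15 through 0.427 to 4.51 CPM, below all 20 striatum libraries.

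Steap1 had lower medians than the genes of water and ion transport in every region, whereas those of Folr1 were near Aqp1 in striatum and hippocampus. Folr1, the folate receptor that carries folate across the plexus, ran from 0.218 through 1.94 to 7.74 CPM in striatum, from 0.274 through 5.09 to 17.2 CPM in hippocampus and from 0.0849 through 0.148 to 0.704 CPM in prefrontal cortex. Steap1, of a family of metalloreductases, ran from 0.0655 through 0.532 to 2.47 CPM in striatum, from 0.127 through 1.53 to 5.32 CPM in hippocampus and from 0.0201 through 0.0782 to 0.266 CPM in prefrontal cortex. In prefrontal cortex Steap1 rested on 1 to 11 reads a library and Folr1 on 4 to 31.

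In hippocampus Enpp2, Kl and Prlr spread less than the other 7 genes, at most 12.9-fold. Enpp2 encodes autotaxin, the secreted enzyme that makes lysophosphatidic acid, and oligodendrocytes express it too. Its level ran from 218 through 420.2 to 917 CPM in striatum, from 109 through 489 to 1402 CPM in hippocampus and from 194 through 215 to 248 CPM in prefrontal cortex, a range of 1.28-fold there. Kl, the co-receptor for fibroblast growth factor 23 that also circulates as a soluble protein, ran from 3.67 through 17.0 to 58.7 CPM in striatum, from 20.1 through 55.9 to 126 CPM in hippocampus and from 1.84 through 3.09 to 4.69 CPM in prefrontal cortex. All 20 hippocampus libraries and 19 striatum libraries had more Kl than any prefrontal cortex library. Prlr, the prolactin receptor, ran from 0.619 through 7.80 to 17.9 CPM in striatum, from 3.33 through 15.7 to 42.1 CPM in hippocampus and from 0.446 through 0.784 to 1.18 CPM in prefrontal cortex.

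Otx2, a homeodomain transcription factor needed to form the plexus and maintained in it in the adult, ran from 0.218 through 1.82 to 5.46 CPM in striatum and from 0.274 through 3.35 to 11.8 CPM in hippocampus. In prefrontal cortex it ran from 0 through 0.0328 to 0.775 CPM. The 5 prefrontal cortex libraries at 0 reads, 3 KO and 2 WT, allow levels of up to 0.0616 to 0.0702 CPM (3 counts each, counting error only).

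Set per kilobase of merged exon, to compare genes, the median level in hippocampus was 756 CPM per kilobase for Ttr, 84.6 for Enpp2, 5.99 for Kl and 4.51 for Clic6, and the other 6 genes lay between 0.793 (Otx2) and 2.21 (Folr1). Since intronic reads are counted as well, these are approximate. In striatum Ttr stood at 234, Enpp2 at 72.7 and Clic6 at 5.02 CPM per kilobase, and Enpp2 at 37.3 CPM per kilobase was the highest of the 10 in prefrontal cortex.

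Regions were compared with edgeR's quasi-likelihood test over all 60 libraries with genotype as a second term, and a gene was called at an adjusted p under 0.05 and an absolute log2 difference of at least 1. All 10 genes were called higher in striatum than in prefrontal cortex, where 7.63% of all 15987 tested genes were. The log2 differences ran from 1.11 ± 0.25 (SE) for Enpp2 to 6.04 ± 0.73 for Ttr, with a median of 3.67 against 0.016 over all genes. All 10 were also called higher in hippocampus than in prefrontal cortex, where 6.0% of all genes were, with differences from 1.42 ± 0.25 for Enpp2 to 7.47 ± 0.78 for Ttr and a median of 4.78. In WT libraries alone the striatum difference of Aqp1 was 0.75 (adjusted p = 0.245) and no longer called.

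Between striatum and hippocampus 8 of the 10 were called lower in striatum, against 4.91% of all genes. Kl differed by -1.48 ± 0.27 on the log2 scale (adjusted p = 1.81e-06), Ttr by -1.43 ± 0.58 (adjusted p = 0.0243) and Slc4a5 by -1.22 ± 0.42 (adjusted p = 0.00769). Steap1, Folr1, Aqp1, Otx2 and Prlr lay between -1.19 and -1.02, close to the limit of the call. Clic6 at -0.05 ± 0.33 and Enpp2 at -0.31 ± 0.25 were not called, with 95% intervals from -0.71 to 0.62 and from -0.81 to 0.19. With genotype and number as a replicate block 1 of the 8 calls was left, that of Kl: Ttr was then -1.10 (adjusted p = 0.164), Aqp1 -0.80 (0.113), Otx2 -0.83 (0.0764), Slc4a5 -0.99 (0.0636) and Folr1 -0.93 (0.0506), and Steap1 (-0.99) and Prlr (-0.87) lay under the size limit. In WT libraries alone Ttr was -1.64 with an adjusted p of 0.0506, and Kl -1.59. Leaving out KO hippocampus replicate 2 left 3 of the 8 calls, and leaving out KO hippocampus replicate 6 or WT hippocampus replicate 10 left 5. The lost ones were Prlr (down to -0.87 without any of 15 libraries: KO hippocampus 2 and 6, KO striatum 1, 3, 6 and 10, WT hippocampus 1, 3, 8, 9 and 10, WT striatum 1, 2, 7 and 10) and Otx2 (down to -0.87 without any of 9: KO hippocampus 2 and 6, WT hippocampus 1, 8 and 10, WT striatum 1, 2, 7 and 10). Aqp1 was lost without KO hippocampus 2 or 6 or WT hippocampus 10, and Folr1 and Slc4a5 without KO hippocampus 2. In each case the difference was smaller than 1, and for Aqp1 without KO hippocampus 2 the adjusted p was 0.0572.

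From library to library the genes moved as a block in striatum and hippocampus. All 45 pairs of the 10 genes had a Pearson's r of log2 CPM above 0.9 in hippocampus (0.913 to 0.991, median 0.977, n = 20 libraries). In striatum 38 of 45 pairs did (0.833 to 0.989, median 0.933). In prefrontal cortex 0 of 45 did, and r ran from -0.348 to 0.738 with a median of 0.276. In bulk tissue fewer plexus cells and less RNA of these genes per cell cannot be told apart.

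**Figure D2:**
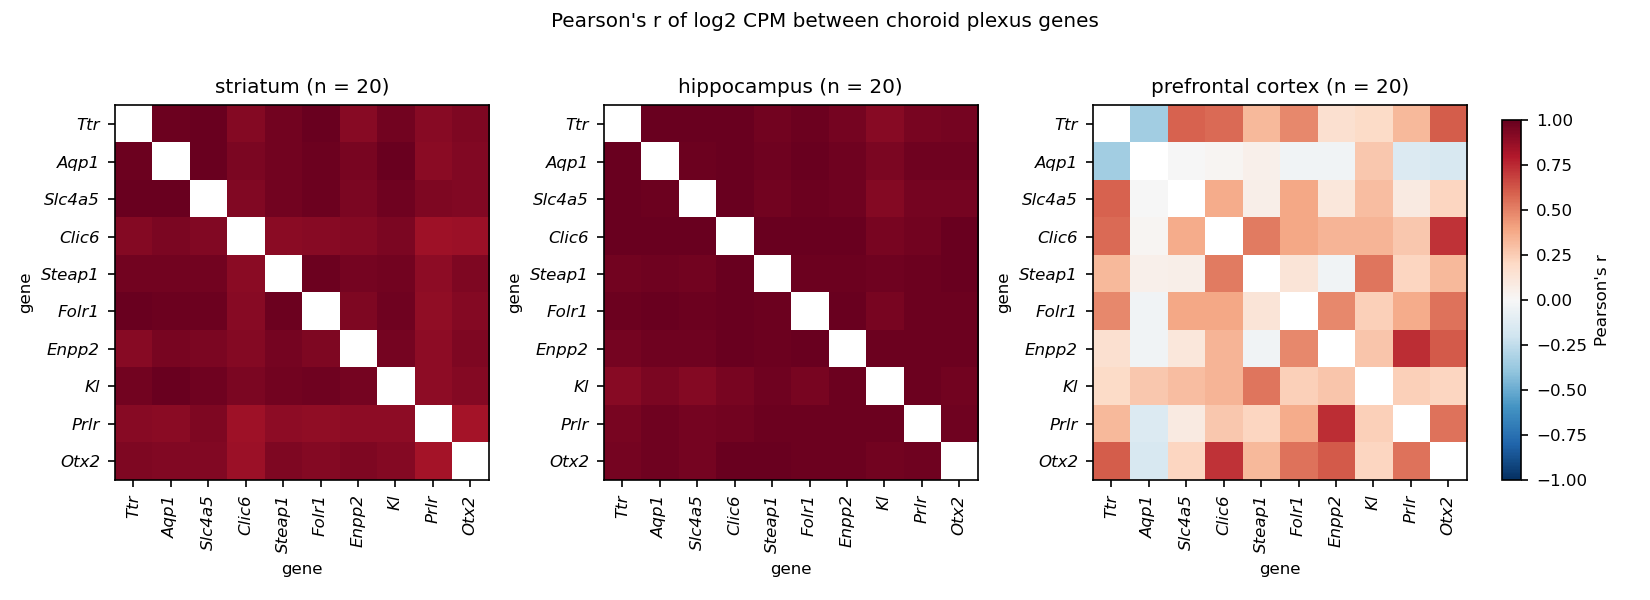
Pearson's r of log2 CPM for each pair of the 10 genes (both axes) in striatum, hippocampus and prefrontal cortex, 20 libraries each, on a colour scale from -1 to 1. The striatum and hippocampus maps are dark red throughout (lowest r 0.833 and 0.913), and the prefrontal cortex map is pale; 7 of its 45 pairs lie below 0.

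With Ttr as the common partner, r in hippocampus ran from 0.913 (Kl) to 0.991 (Aqp1) and Spearman's rho from 0.919 to 0.986. In striatum r ran from 0.908 (Prlr) to 0.989 (Slc4a5) and rho from 0.935 to 0.991. Each of these 18 relations had a permutation p of 1e-05, the smallest that 100000 resamples can give, and 1.5e-05 after adjustment over 27 relations. Without the 2 libraries farthest from the median of Ttr the median r over the 9 partners was 0.975 in hippocampus and 0.949 in striatum, and within genotypes (each centred) it was 0.966 and 0.971.

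Prefrontal cortex gave weaker relations. Otx2 (r = 0.603, adjusted permutation p = 0.00709), Slc4a5 (r = 0.59, adjusted permutation p = 0.00815), Clic6 (r = 0.565, adjusted permutation p = 0.0103) and Folr1 (r = 0.482, adjusted permutation p = 0.036) passed there, and rho passed for Otx2 (0.58), Slc4a5 (0.556) and Clic6 (0.544) but not for Folr1 (0.195). KO replicates 6 and 3 had the highest Ttr in the region (51.6 and 17.8 CPM). Without them r was 0.394 for Otx2, 0.436 for Slc4a5, 0.374 for Clic6 and -0.032 for Folr1. The median r over the 9 genes was then 0.0323, against 0.328 with both libraries. Within WT, which holds neither library, r was 0.446 for Otx2, 0.677 for Slc4a5, 0.559 for Clic6 and 0.014 for Folr1. Aqp1 had an r of -0.348 with Ttr (adjusted permutation p = 0.157).

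**Figure D3:**
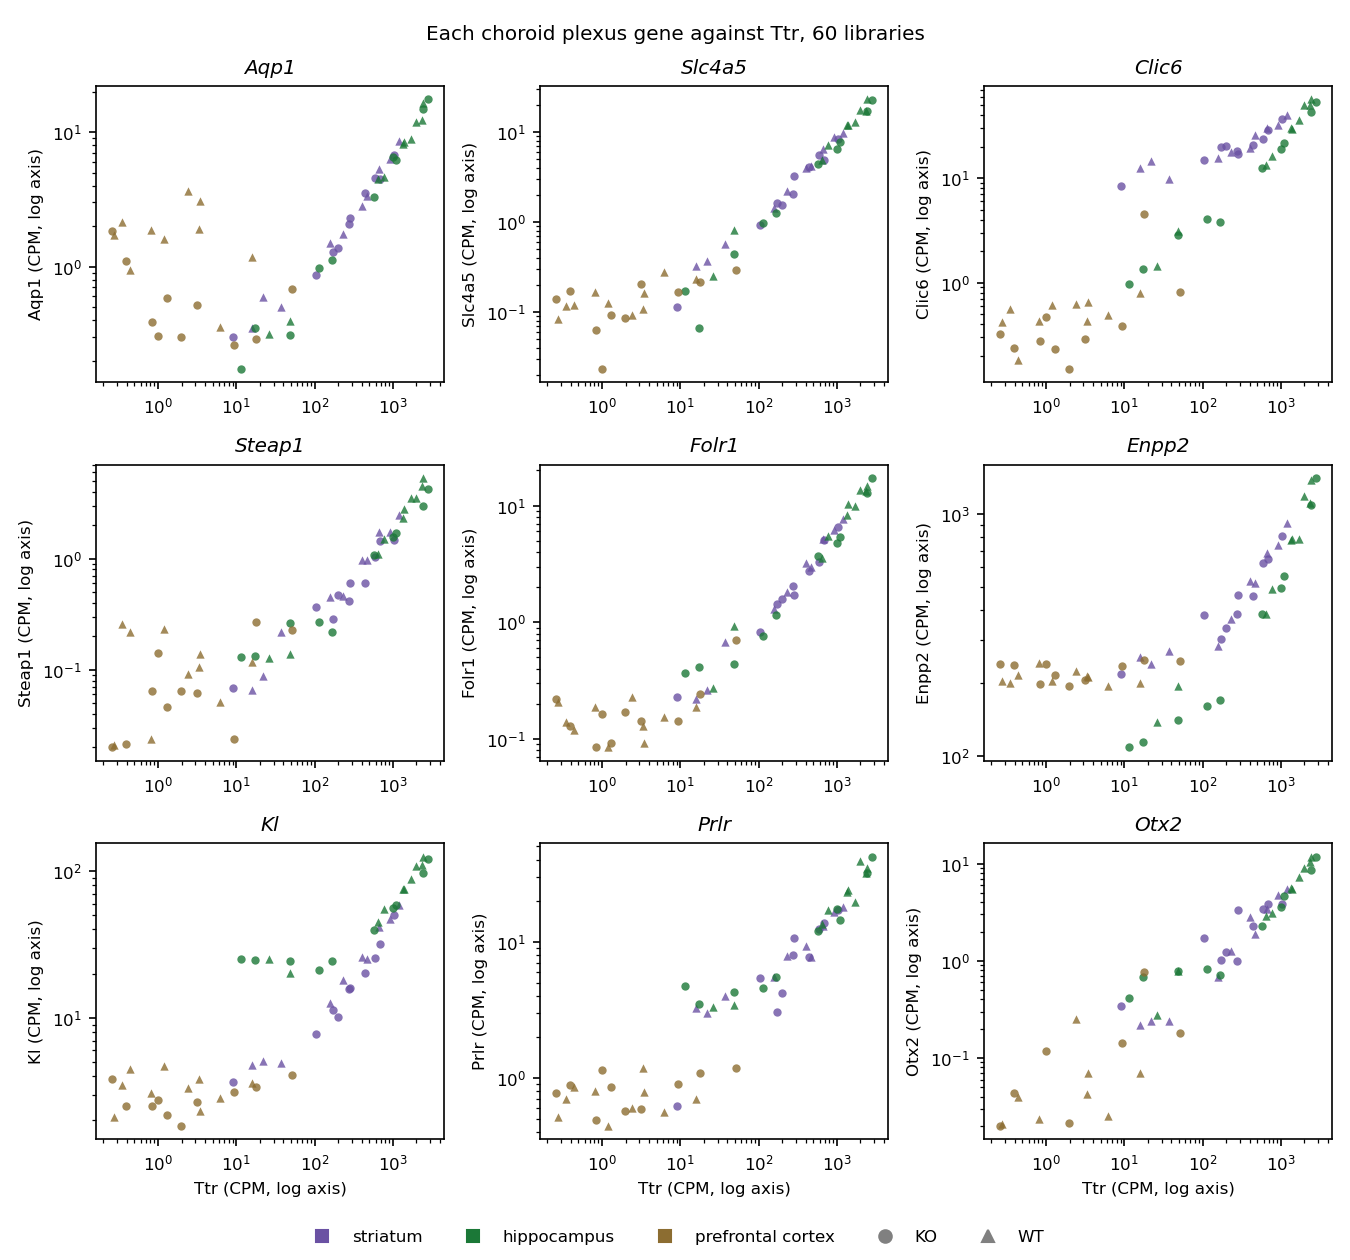
Each of the other 9 genes against Ttr, both in CPM on log axes, for 60 libraries coloured by region (circles KO, triangles WT). Aqp1, Slc4a5, Folr1, Steap1 and Otx2 fall on 1 line for striatum and hippocampus. Clic6 (striatum), Kl (striatum and hippocampus), Prlr (hippocampus) and Enpp2 (all regions) level off at low Ttr.

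A straight line of CPM on Ttr CPM was fitted for each gene and region, and its value at a Ttr of 0 is an extrapolation. Per 1000 CPM of Ttr, Aqp1 gained 6.77 ± 0.17 CPM (SE) in striatum and 5.96 ± 0.18 in hippocampus, Slc4a5 8.45 ± 0.32 and 8.03 ± 0.33, Folr1 6.38 ± 0.21 and 5.82 ± 0.23, and Otx2 4.27 ± 0.40 and 4.10 ± 0.15. Steap1 gained 1.82 ± 0.12 CPM in striatum and 1.68 ± 0.11 in hippocampus, and Prlr 14.0 ± 1.0 and 13.0 ± 0.79. Kl gained 46.2 ± 1.9 CPM in striatum and 37.5 ± 1.6 in hippocampus, Clic6 24.0 ± 1.4 and 20.3 ± 0.83, and Enpp2 577 ± 25.2 and 454 ± 18.9. All 9 slopes were nominally higher in striatum, and they were not tested against each other.

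The extrapolated level at which the line met a Ttr of 0 differed by gene and region. For Aqp1, Slc4a5, Folr1, Steap1 and Otx2 it was at most 0.469 CPM in both regions. Clic6 met it at 11.9 ± 0.7 CPM in striatum and 1.21 ± 1.17 in hippocampus. Kl did so the other way round, at 3.61 ± 0.98 CPM in striatum and 21.6 ± 2.2 in hippocampus. Enpp2 met it at 245 ± 13.1 CPM in striatum, 114 ± 26.7 in hippocampus and 215 ± 4.5 in prefrontal cortex, and Prlr at 3.02 ± 0.54, 3.86 ± 1.11 and 0.729 ± 0.053 CPM. The extrapolated level of Clic6 in striatum accompanies its lack of a difference between striatum and hippocampus, and that of Kl in hippocampus accompanies a difference of -1.48. These levels are not measured floors. In striatum the lowest library held 0.619 CPM of Prlr, 8.37 of Clic6 and 218 of Enpp2, each below the line's level at a Ttr of 0. For Kl the lowest striatum library (3.67 CPM) lay just above it.

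Outside the 10 genes, the patterns most like their mean log2 CPM (all 60 libraries, each region and genotype centred, 16111 genes ranked) were Tmem72 (r = 0.966), Kcne2 (0.965), F5 (0.962), Prr32 (0.958), Drc7 (0.948), Wfdc2 (0.947), 1500015O10Rik (0.941), Abca4 (0.939), Gm21973 (0.938) and Cldn2 (0.93). Of these, Tmem72, Kcne2, F5, 1500015O10Rik and Cldn2 belong to a list of 25 other choroid plexus genes. Gm21973 overlaps the end of Prlr on the same strand, and how reads there were counted is not given. Kcne2 is a potassium channel subunit, F5 is coagulation factor V and Cldn2 a tight junction claudin. In hippocampus Cldn2, F5 and Kcne2 came first (0.997, 0.996 and 0.990), in striatum Kcne2, Cldn2 and the potassium channel Kcnj13 (0.992, 0.986 and 0.984). In prefrontal cortex Prr32, Tmem72 and the keratin Krt8 came first, at 0.818, 0.781 and 0.731. The number of genes with r above 0.9 was 37 in striatum, 108 in hippocampus and 0 in prefrontal cortex.

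Markers of other cells were set against Ttr in the same way, as the mean log2 CPM of each list, with adjustment over 30 relations. The list of other choroid plexus genes had an r of 0.979 in striatum and 0.975 in hippocampus (adjusted permutation p = 0.00015 each). Genes of ependymal cells, the ciliated lining of the ventricles, had an r of 0.661 in striatum (adjusted permutation p = 0.00732) and 0.782 in hippocampus (adjusted permutation p = 0.0004). Oligodendrocyte genes had an r of 0.673 in striatum (adjusted permutation p = 0.00732) and 0.488 in hippocampus (adjusted permutation p = 0.0833), where rho passed (0.618, adjusted permutation p = 0.0125). That hippocampal r was 0.732 within KO and -0.144 within WT, and 0.351 without the 2 libraries farthest in Ttr. The cortical neuron genes had an r of -0.640 in striatum and -0.564 in hippocampus (adjusted permutation p = 0.0119 and 0.0324). Genes of the meninges, the brain's outer coverings, had an r of 0.617 in striatum (adjusted permutation p = 0.0122) and -0.116 in hippocampus (adjusted permutation p = 0.696). Striatal neuron genes had an r of 0.644 with Ttr in hippocampus (adjusted permutation p = 0.0119), where they summed to 65.9 to 330.2 CPM. Spearman's rho passed, with the same sign, wherever r did. No list passed in prefrontal cortex, and the other 4 lists passed in no region. Without the 2 libraries farthest in Ttr those whose r had an adjusted p under 0.05 kept their sign, at an r of 0.473 or more in size.

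Libraries of equal number were set side by side across regions, since they may come from 1 animal. The mean log2 CPM of the 10 genes, each genotype centred, had an r of 0.205 between hippocampus and prefrontal cortex, of -0.247 between hippocampus and striatum and of -0.239 between prefrontal cortex and striatum (n = 20 numbers each; a description). In the same order r was 0.493, -0.372 and -0.566 within KO, and -0.434, -0.138 and 0.249 within WT. Without the 2 numbers farthest in the first-named region it was 0.383, -0.266 and 0.164. KO number 6 gave the lowest Ttr of the striatum libraries (8.99 CPM), a high value in hippocampus (2449 CPM) and the highest in prefrontal cortex (51.6 CPM).

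Each region's KO and WT libraries were compared to ask whether the loss of Adgrl3 went with a change in the 10 genes. In striatum and hippocampus 0 of 10 were called, against 0.0514% and 0.128% of all genes tested, and 0 had an unadjusted p under 0.05 by edgeR. DESeq2 and limma voom also called 0 in these regions. The genotype groups overlapped for all 10 genes in both.

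In hippocampus the KO levels were nominally lower for all 10 genes, with wide intervals. Ttr ran from 11.6 through 371 to 2825 CPM in KO hippocampus, and from 25.8 through 1361 to 2440 CPM in WT hippocampus. Aqp1 ran from 0.174 through 2.22 to 17.5 CPM in KO and from 0.316 through 8.31 to 16.5 CPM in WT, and Otx2 from 0.412 through 1.55 to 11.8 CPM in KO and from 0.274 through 5.51 to 11.7 CPM in WT. Both genotypes thus covered nearly the same range, with the KO medians lower. The log2 differences, KO minus WT, ran from -0.97 ± 0.66 (Steap1, SE) to -0.56 ± 0.73 (Aqp1), with a median of -0.67 against 0.0012 over 15581 genes. For Ttr the difference was -0.61 ± 0.90, with a 95% interval from -2.50 to 1.28. The smallest adjusted p was 0.724. Since the 10 genes move together, their common sign is not 10 separate observations.

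With Ttr as a covariate the hippocampal differences of the other 9 genes shrank to between -0.33 ± 0.16 (Steap1) and -0.00059 ± 0.13 (Aqp1), and 0 of them were called. Kl, the other gene on chromosome 5, was -0.15 ± 0.18 on that scale. Slc4a5, on another chromosome, was -0.27 ± 0.09, the farthest from 0 for its SE. In striatum the same fit gave -0.37 ± 0.14 for Steap1 and -0.34 ± 0.12 for Kl (adjusted p = 0.593 and 0.544), and between -0.25 and 0.29 for the other 7.

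**Figure D4:**
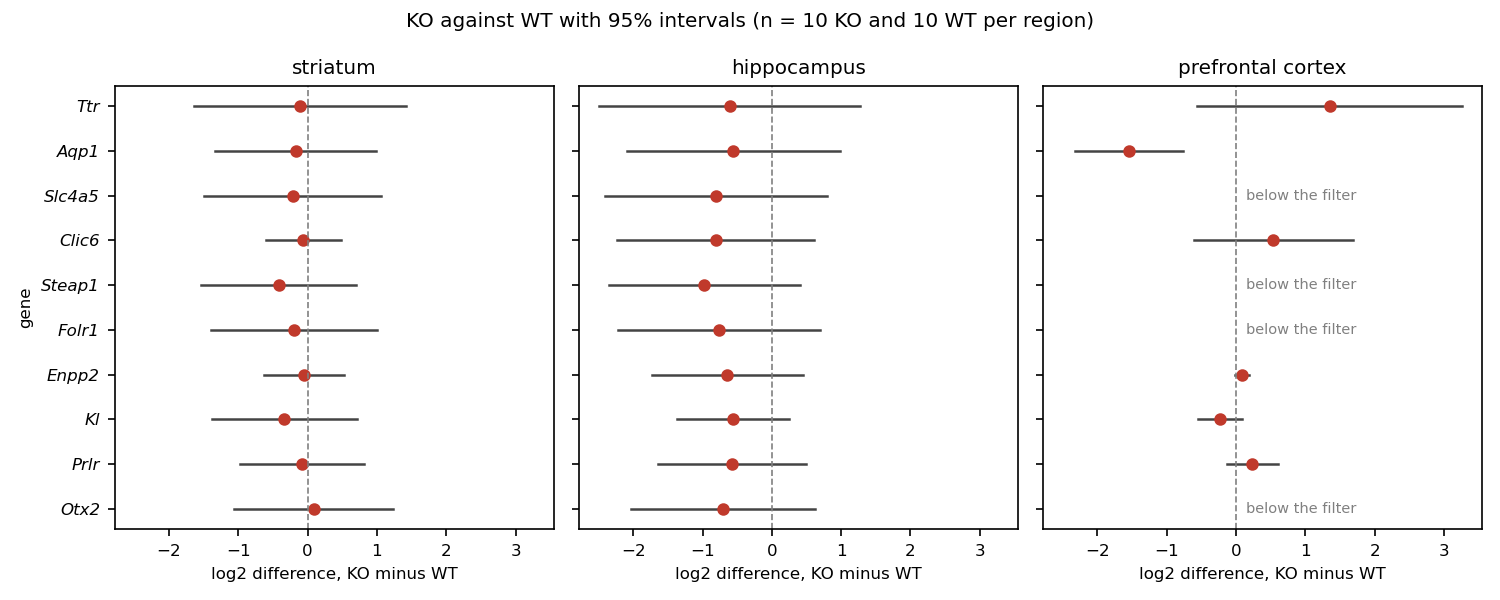
Log2 difference, KO minus WT, of each gene (rows) in striatum, hippocampus and prefrontal cortex with 95% intervals, 10 KO and 10 WT libraries per region; 4 genes fell below the low-count filter in prefrontal cortex. All intervals cross 0 except that of Aqp1 in prefrontal cortex (-2.33 to -0.76), which did not pass the adjusted threshold.

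In striatum the differences were near 0. Ttr ran from 8.99 through 277 to 1028 CPM in KO striatum, and from 15.9 through 318 to 1190 CPM in WT striatum, a difference of -0.11 ± 0.73. Enpp2 ran from 218 through 420.2 to 809 CPM in KO and from 239 through 443.7 to 917 CPM in WT. Steap1 was farthest from 0 at -0.42 ± 0.54, and the median of the 10 was -0.14.

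In prefrontal cortex 6 of the 10 genes passed the low-count filter. Folr1, Otx2, Slc4a5 and Steap1 did not. By edgeR 0 of the 6 were called, against 0.117% of all genes. Of the 6, 1 (Aqp1) had an unadjusted p under 0.05, as had 1808 of all 15376 genes tested. Ttr ran from 0.261 through 1.64 to 51.6 CPM in KO prefrontal cortex, and from 0.271 through 1.82 to 15.9 CPM in WT prefrontal cortex (difference 1.35 ± 0.91, adjusted p = 0.622). Enpp2 ran from 194 through 236 to 248 CPM in KO and from 194 through 208 to 242 CPM in WT, a difference of 0.09 ± 0.05 with a 95% interval from -0.01 to 0.19.

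Of the 6 genes tested in prefrontal cortex, Aqp1 alone had a 95% interval that did not cross 0. Its levels in KO replicates 1 to 10 were 1.10, 0.304, 0.291, 0.579, 0.514, 0.681, 1.82, 0.263, 0.384 and 0.299 CPM, and in WT replicates 1 to 10 they were 3.67, 1.90, 1.59, 0.944, 1.87, 1.17, 0.357, 2.15, 3.07 and 1.71 CPM. The lowest 8 KO libraries lay below 9 of the 10 WT libraries, and the groups overlapped through KO replicates 1 and 7 and WT replicate 7. The log2 difference was -1.54 ± 0.38, with an adjusted p of 0.0965 by edgeR. DESeq2 called it (-1.56 ± 0.40, adjusted p = 0.0195), limma voom did not (-1.53 ± 0.45, adjusted p = 0.13), and edgeR called it without KO replicate 7 (-1.90, adjusted p = 0.0164) or WT replicate 7 (-1.66, adjusted p = 0.041). Of 10 other settings, those without a covariate of olfactory bulb or erythrocyte genes gave -1.63 to -1.53, with an adjusted p of 0.0195 to 0.318. Those covariates, described below and added after the data were seen, gave -0.16 (adjusted p = 0.99997) and -1.14 (adjusted p = 0.998). Over the 20 fits without 1 library the difference ran from -1.90 to -1.38 and its adjusted p from 0.0164 to 0.174. These levels rest on 11 to 91 reads in KO and 14 to 159 in WT libraries.

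**Figure D5:**
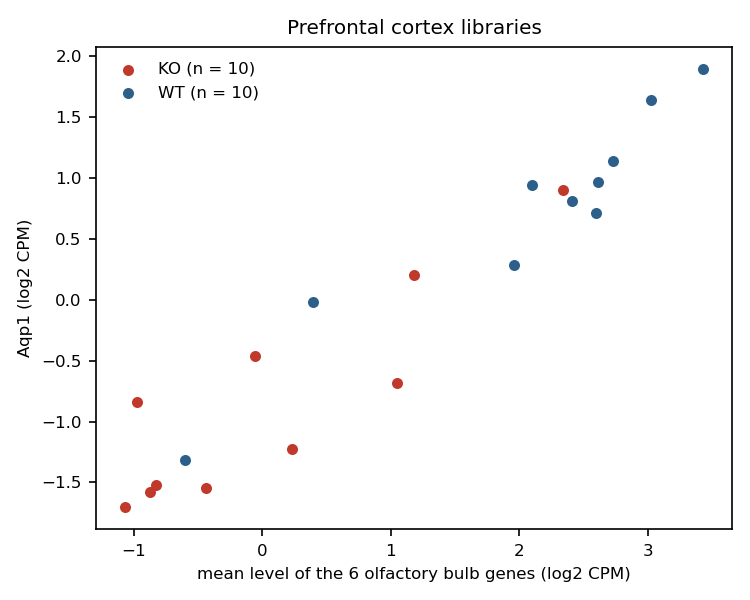
Aqp1 (log2 CPM, vertical) against the mean log2 CPM of 6 olfactory bulb genes (horizontal) in the 10 KO and 10 WT prefrontal cortex libraries. The points of both genotypes lie along 1 rising band (r = 0.956), with most KO libraries at its lower end and most WT libraries at its upper end.

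In these libraries Aqp1 did not follow the other choroid plexus genes but a list of olfactory bulb neuron genes (Eomes, Tbx21, Cdhr1, Doc2g, Th and Scgn), a relation looked at after the values were seen. The 6 genes summed to 5.90 to 58.9 CPM (median 9.35) in KO prefrontal cortex, and to 7.24 to 116 CPM (median 56.6) in WT prefrontal cortex, with a median log2 difference of -1.79. All 6 were lower in KO at an unadjusted p under 0.05 by edgeR, a limit that 1808 of all 15376 genes passed in either direction. Scgn was called close to the threshold (-2.20 ± 0.44, adjusted p = 0.0497). DESeq2 called 4 of the 6 genes and limma voom called 0 of the 6 genes. Aqp1 had an r of 0.956 and a rho of 0.949 with their mean over 20 libraries (permutation p = 1e-05 each, the smallest possible, and 1e-04 adjusted over 10 lists). The r was 0.943 without the 2 libraries farthest in the list, 0.882 within KO and 0.953 within WT. With the list as a covariate the Aqp1 difference between genotypes was -0.16 ± 0.21. Its r with the list of other choroid plexus genes was 0.268 (adjusted permutation p = 0.32).

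Red blood cells also make Aqp1, and the 5 erythrocyte genes summed to 299.8 to 619 CPM in KO prefrontal cortex and to 389 to 888 CPM in WT prefrontal cortex. Their mean had an r of 0.62 with Aqp1 (adjusted permutation p = 0.0133), of 0.26 within KO and 0.387 within WT. With that list as a covariate the Aqp1 difference was -1.14 ± 0.47. Lists of oligodendrocytes (r = -0.603, adjusted permutation p = 0.0133), cortical neurons (-0.548, 0.0324) and meninges (0.505, 0.0394; rho 0.49, 0.0596) also passed with Aqp1 by r. The part of any of these cells in the Aqp1 difference was not tested further.

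Over the 3 regions combined, 0 of the 10 genes were called by edgeR, against 4.06% of all 15987 genes, 0 had an unadjusted p under 0.05, and DESeq2 and limma voom called 0. Steap1 came nearest, at -0.69 ± 0.35 (adjusted p = 0.27), and then Aqp1 at -0.68 ± 0.36 (adjusted p = 0.295). Ttr was 0.06 ± 0.50. All 5 erythrocyte genes were called lower in KO in this comparison, where 1.9% of all genes were, with a median of -0.48. The combined fit took the 60 libraries as independent, although equal numbers may mark 1 animal. Over all genes it called 649, against 27 with counts summed per genotype and number. Voom with a correlation per genotype and number called 190, among them all 5 erythrocyte genes. A difference between regions in the size of the genotype effect was tested with both interaction terms together: 0 of the 10 genes were called, against 0.0248% of all genes, 0 had an unadjusted p under 0.05 (lowest 0.291, Enpp2), and DESeq2 and limma voom called 0.

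A list of 25 other choroid plexus genes was examined in the same comparisons. In striatum against prefrontal cortex 14 were called higher and 2 lower, against 7.63% and 4.72% of all genes. Car12, a carbonic anhydrase, stood at 2.73 ± 0.11 and Tmem72 at 5.53 ± 0.68. The lower ones, named after their values were seen, were the sulfate transporter Slc13a4 (-1.49 ± 0.28) and Wfikkn2 (-1.13 ± 0.30). In hippocampus against prefrontal cortex 18 were called higher, as were 6.0% of all genes, and 0 lower. Among the 18 were the nucleoside and monoamine transporter Slc29a4 (2.30 ± 0.08) and Sostdc1 (4.06 ± 0.34). In striatum against hippocampus 14 were called lower, as were 4.91% of all genes, with Slc29a4 at -1.76 ± 0.08. These calls come from the fit without a replicate block. Among the 10 genes the block left 1 of 8 such calls, and for this list its result is not given. Between KO and WT edgeR, DESeq2 and limma voom called 0 in every region. In hippocampus 24 of the 25 lay below 0, with a median of -0.51, and Wfikkn2 (0.29 ± 0.50) above it. At an unadjusted p under 0.05 by edgeR there were 1 of 24 tested in striatum (Spint2), 0 of 25 in hippocampus and 2 of 17 in prefrontal cortex (Cldn1 and Trpv4). Over all genes there were 1110 of 15553 in striatum, 1269 of 15581 in hippocampus and 1808 of 15376 in prefrontal cortex.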

How the data were processed

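Per the labels, striatum, hippocampus and prefrontal cortex of Adgrl3 KO and WT mice were sequenced as total RNA, 10 libraries per genotype and region. The authors deposited raw read counts per gene, with GRCm38 positions, per the file headers; features span whole genes. STAR 2.5.2b, bedtools, DESeq2 1.16.1, cutadapt 1.16 and FastQC 0.11.4 are named, with no role, in the submitters' processing notes. The sources used here do not give the strand handling. Library totals of 38985577 to 51387833 counts limit precision for genes with few reads, and intervals cover the spread between libraries.

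The 10 genes, the marker lists and the tests were chosen with earlier results of these data known. Counts were tested with edgeR 4.0.16 (R 4.3.3; TMM, filterByExpr, robust quasi-likelihood F test, Benjamini-Hochberg adjustment over all genes tested at 0.05), on the 20 libraries of a region for KO against WT and on all 60 for the rest. Region calls also need an absolute log2 difference of at least 1. The edgeR step was tested on simulated KO and WT counts of hippocampus. Their spread between libraries was smaller than that of the 10 genes, so the power for these genes was not measured. SE is the log2 difference divided by the root of F. Levels are CPM after TMM over 60 libraries, and log2 CPM uses a prior count of 2. Correlations used 100000 resamples (two-sided; scipy 1.17.1). Exon lengths are from GENCODE vM21 and promoters from RefSeq. Named were the 10 genes, up to 4 called members of each list by smallest p (otherwise up to 2), and the genes most like the mean of the 10; exceptions are stated.

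Alternatives were DESeq2 1.42.0, limma 3.58.1 voom, RLE size factors, other filters, a replicate block, all libraries in a single fit, Ttr as a covariate, counts summed per number, WT libraries alone and leaving out libraries; the olfactory bulb and erythrocyte covariates and the left-out libraries between striatum and hippocampus were added after the data were seen. Equal numbers were checked for pairing by the correlation of deviations from group means. Between KO and WT, 1 or 2 of 10 pairs exceeded 0.1. Across regions within a genotype all 10 pairs did for hippocampus with prefrontal cortex and for prefrontal cortex with striatum, and 8 of 10 for hippocampus with striatum, so the comparisons with prefrontal cortex count as paired. Equal numbers may then mark 1 animal in all regions, and the blocked result is given for striatum against hippocampus too. Replicates of a group differed by more than sampling noise in every pair.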

Additional observations from a re-analysis of the deposited data

Results flagged for a closer look

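Each gene was checked in the 60 combinations of gene, region and genotype for a single library far from the other 9 of its group on the log2 scale; 6 were found, and chance alone gives about 1 in 20. KO striatum replicate 6 was low for Ttr (8.99 CPM) and for Prlr (0.619 CPM). The same numbered KO library of prefrontal cortex was high for Folr1 (0.704 CPM), and KO prefrontal cortex replicate 3 was high for Clic6 (4.51 CPM). WT prefrontal cortex replicate 4 was low for Clic6 (0.181 CPM), and replicate 1 was high for Otx2 (0.254 CPM, the highest of the WT libraries). Both prefrontal cortex KO libraries also had the most Ttr of that region (51.6 and 17.8 CPM). In prefrontal cortex Folr1 had at most 31 and Otx2 at most 32 reads in a library.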

How the results depend on the processing

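The counts of called genes among the 10 were the same under all other settings run except these. In prefrontal cortex DESeq2 called 1 (Aqp1), and leaving out 1 library gave 0 to 1 (KO replicate 7 or WT replicate 7). Between striatum and hippocampus, leaving out 1 library gave 3 to 8 of 10, WT libraries alone gave 7, and a replicate block per genotype and number gave 1 (Kl); WT alone gave 9 in striatum against prefrontal cortex. The block changed no call against prefrontal cortex. Between KO and WT the block was by number alone, which joins KO and WT libraries that the check did not find to be pairs. It changed no call there either. In prefrontal cortex the median r with Ttr was 0.0323 without the 2 farthest libraries.

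Signs changed only for differences that were not called, and the cause was not tested. Prefrontal cortex Clic6 was -0.53 (DESeq2), -0.00760 (voom), -0.082 (replicate block), -0.00710 (Ttr covariate) and -0.15 (olfactory bulb covariate), and -0.56 to 0.66 with 1 library left out (below 0 without KO replicate 3); Ttr there was -0.11 with the olfactory bulb covariate. In striatum voom gave 0.18 (Aqp1), 0.10 (Slc4a5), 0.19 (Folr1), 0.018 (Enpp2), 0.077 (Clic6) and 0.32 (Ttr), and the replicate block 0.054 (Aqp1), 0.072 (Slc4a5), 0.083 (Folr1), 0.023 (Enpp2) and 0.48 (Ttr). Leaving out 1 striatum library gave -0.42 to 0.15 (Aqp1), -0.49 to 0.062 (Slc4a5), -0.47 to 0.092 (Folr1), -0.051 to 0.37 (Otx2), -0.26 to 0.10 (Prlr), -0.18 to 0.10 (Enpp2), -0.19 to 0.083 (Clic6) and -0.42 to 0.23 (Ttr). Combined, Otx2 was 0.12 (DESeq2) and Ttr -0.43 (summed counts), -0.60 (voom with a correlation) and -0.088 (replicate block). Striatum minus hippocampus Clic6 was 0.42 with the block and -0.12 to 0.13 with 1 library left out.

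Calls over all genes moved by more than 1.5 times: in hippocampus 20, with DESeq2 47, the block 5 and 1 library left out 12 to 26; in prefrontal cortex 18, with DESeq2 222, voom 55, the block 10, a single fit of 60 libraries 208, the olfactory bulb or erythrocyte covariate 4 and 1 library left out 9 to 68; in striatum 8, with DESeq2 28, the block 3, the single fit 22 and 1 library left out 5 to 15; combined 649, with summed counts 27, voom with a correlation 190 and the block 1060; for the interaction 4, with DESeq2 17 and the block 0; between hippocampus and prefrontal cortex 1628, without a filter 2450.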
